A study of Homo sapiens with 10 samples.

Results

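Genes that lie beside ERBB2 on chromosome 17 (17q12 to 17q21) are copied with it when the locus is amplified in breast cancer. The 10 genes described here, MED1, CDK12, PPP1R1B, STARD3, TCAP, PNMT, PGAP3, MIEN1, GRB7 and IKZF3, were chosen by name and position out of 20098 protein-coding genes on the autosomes and the X chromosome. Each was examined over its gene body plus 10 kb on each side (its window) in hg19 coordinates. ERBB2 itself is given beside them for reference and is not counted among the 10.

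The data came from SKBR3 and BT474, human breast cancer cell lines that both carry an amplified ERBB2 locus. HER2, the receptor that ERBB2 encodes, was mapped on chromatin by ChIP-exo, in which an exonuclease trims the immunoprecipitated DNA, in cells given vehicle (H2O) or EGF at 100 ng/ml for 3 h, with 1 peak list for each line and treatment and therefore no replicate. For H3K4me1 (histone H3 with 1 methyl group on lysine 4, common at enhancers), 2 ChIP-seq libraries were made from each line, named asynchronous in the sample labels, whereas the study's text describes EGF-treated cells for this mark. The 2 input samples were not analysed here. Each group is a single cell line, so a difference between groups is a difference between SKBR3 and BT474 and cannot be told apart from any other property in which these lines differ.

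Amplification adds whole copies of a chromosome segment, and a gene within the segment gains copies whether or not its product serves the tumour. ChIP reads over a segment rise with the number of copies as well as with the amount of the mark on each copy. The deposited H3K4me1 values were read counts per island, an island being a stretch of 200-bp steps joined by SICER, and they were not scaled to input. More copies and more of the mark per copy cannot be told apart in them.

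The islands held between 15097156 and 18713926 reads per library on the autosomes and X, in 70251 to 96291 islands. In gene bodies of 8 luminal breast genes, such as the keratin gene KRT8, over 50% was covered by islands in both replicates for 5 genes in BT474 and 3 in SKBR3, with 0 and 2 genes at 0. The cover of single genes of that list ran from 0 to 71.9% in BT474 and from 0 to 71.0% in SKBR3. PGR, the progesterone receptor gene, was covered over 88.6% and 86.6% of its body in BT474 and 2.40% and 3.54% in SKBR3. ESR1, the other hormone receptor gene examined, differed far less, with 26.3% and 27.3% in BT474 and 19.7% and 18.8% in SKBR3. CDH1 (E-cadherin) was covered over 57.0% and 58.6% in BT474 and was at 0 in both SKBR3 libraries. Of 8 markers of other cell types, 0 passed 50% in both replicates of either line and 3 were at 0 in each line, although single values reached 55.0% in SKBR3 (CD3E) and 33.0% in BT474 (COL1A1).

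The members fell into 4 kinds of function. MED1 (a subunit of the Mediator complex, which links transcription factors to RNA polymerase II), CDK12 (a kinase that phosphorylates the polymerase during elongation) and IKZF3 (Aiolos, a zinc-finger factor of lymphocytes) act in transcription. GRB7, an SH2-domain adaptor that binds activated receptor kinases such as HER2, and MIEN1, a small membrane-anchored protein tied to cell migration, act in signalling. STARD3 carries cholesterol at late endosomes and PGAP3 remodels the lipid of GPI anchors. PPP1R1B (DARPP-32, an inhibitor of protein phosphatase 1), TCAP (a cap for titin in muscle sarcomeres) and PNMT (the enzyme that makes adrenaline) are known mainly from brain, muscle and adrenal gland.

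In hg19 the order along chromosome 17 was MED1, CDK12, PPP1R1B, STARD3, TCAP, PNMT, PGAP3, ERBB2, MIEN1, GRB7 and IKZF3. The gene bodies started with MED1 at chr17:37560538-37607525 and CDK12 at chr17:37617739-37723812, followed by PPP1R1B at chr17:37782993-37792879 and STARD3 at chr17:37793343-37820454. TCAP lay at chr17:37821602-37822807, PNMT at chr17:37824234-37826728 and PGAP3 at chr17:37827375-37853050, overlapping the 5′ end of ERBB2 at chr17:37844167-37886679. MIEN1 at chr17:37884749-37886785 overlapped the 3′ end of ERBB2, GRB7 lay at chr17:37894180-37903544 and IKZF3 ended the row at chr17:37913971-38020565. MED1, PGAP3, MIEN1 and IKZF3 are transcribed from the minus strand and the other 6 members from the plus strand. The windows together spanned 480 kb, and 10 of the 45 pairs of windows overlapped, so the members are not independent measurements. Members whose windows did not overlap could also lie in the same island and share its count.

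The promoters of MED1 and CDK12 are printed below because islands met them differently in the lines: both genes started inside an island in both BT474 libraries and in neither SKBR3 library. Each is the 250 bases upstream of the gene start, read from GRCh37 on the gene's own strand. The study writes the core of the motif under HER2 peaks as CGT_TGC, and its spacer was read here as a single base (CGTNTGC on either strand). Capitals would mark this core, and neither promoter holds it.
MED1 promoter, chr17:37607526-37607775, minus strand: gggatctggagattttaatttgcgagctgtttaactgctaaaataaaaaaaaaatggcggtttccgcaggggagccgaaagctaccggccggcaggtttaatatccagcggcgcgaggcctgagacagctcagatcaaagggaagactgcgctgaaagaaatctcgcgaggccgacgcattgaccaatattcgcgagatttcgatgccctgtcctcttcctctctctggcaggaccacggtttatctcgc
CDK12 promoter, chr17:37617489-37617738, plus strand: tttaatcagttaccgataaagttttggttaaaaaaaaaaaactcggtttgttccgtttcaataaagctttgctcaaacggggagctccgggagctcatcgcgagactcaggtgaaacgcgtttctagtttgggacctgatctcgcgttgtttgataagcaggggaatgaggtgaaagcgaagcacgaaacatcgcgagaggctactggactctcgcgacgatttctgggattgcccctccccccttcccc

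The core CGTNTGC was found in 0 of the 10 member promoters, against 6.81% of the 20098 promoters of the same length. These letters were absent from these 250 bases, and no more than that is measured. The member promoters held between 4 (PGAP3) and 25 (MIEN1) CpG dinucleotides, with a median of 15.5, against a median of 14 over all promoters. The printed promoters held 19 (MED1) and 18 (CDK12).

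H3K4me1 islands covered the cluster almost end to end in BT474 and left its proximal end largely open in SKBR3. In BT474 a single island, chr17:37742201-37978800 (236.6 kb), had the same bounds in both replicates. It enclosed 7 members whole (PPP1R1B, STARD3, TCAP, PNMT, PGAP3, MIEN1 and GRB7) together with ERBB2 and part of IKZF3. This island ranked 1 by reads among all islands of each BT474 library, with 85308 reads in replicate 1 and 70638 in replicate 2, which made up 0.456% and 0.468% of the reads in islands. In SKBR3 the same stretch was held by a pair of islands that met at ERBB2. The proximal SKBR3 island, 104.8 kb wide in replicate 1 and 144.6 kb in replicate 2, enclosed PPP1R1B, STARD3, TCAP, PNMT and PGAP3 and ended at position 37856200 in both replicates. In replicate 2 it also reached into CDK12. The distal one, 121.4 kb wide in both replicates, enclosed MIEN1 and GRB7 and began at position 37857201 in replicate 1 and 37857401 in replicate 2. These SKBR3 islands ranked between 9 and 17 by reads in their libraries.

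The gap between these SKBR3 islands was 1000 bp in replicate 1 and 1200 bp in replicate 2, and an annotated start site of ERBB2 lay in it. Short gaps, of at most 2 kb between neighbouring islands, were few over the member windows. The gap in SKBR3 replicate 1 and both gaps in SKBR3 replicate 2 (at ERBB2 and at CDK12) held a start site, against 17.8% and 18.6% of all short gaps in those libraries. In BT474 it was 0 of 1 gap in replicate 1 and 1 of 3 in replicate 2 (at the neighbouring gene FBXL20), against 23.4% and 24.6% genome-wide.

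Cover, the share of a window that lies in islands, was 100% in all 4 libraries for PPP1R1B, STARD3, TCAP, PNMT, MIEN1 and GRB7. PGAP3 was covered over 100% of its window in both BT474 libraries and over 97.8% and 97.4% in SKBR3, where the gap at ERBB2 falls. MED1 was covered over 100% and 98.8% of its window in BT474 and 24.3% and 25.1% in SKBR3. The SKBR3 cover of MED1 lay wholly in its flanks, since 0% of its gene body was in an island in either SKBR3 library against 100% in both BT474 libraries. CDK12 was covered over 100% and 99.4% of its window in BT474, and over 15.1% in SKBR3 replicate 1 and 48.9% in SKBR3 replicate 2. Cover was higher in both BT474 libraries than in both SKBR3 libraries for MED1, CDK12 and PGAP3, as it was for 39.6% of all 20098 windows, and for CDK12 the SKBR3 replicates lay far apart (32.0% ± 23.9, SD, n = 2).

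IKZF3 was the only member under 95% in BT474, at 84.0% in replicate 1 and 68.4% in replicate 2. In SKBR3 its cover was 67.2% and 77.6%, so the lines overlapped. Its start, at the distal end of the cluster, lay inside an island in BT474 replicate 1 and SKBR3 replicate 2 and 14165 bp from the nearest island in the other two libraries. The start of MED1 lay 476 bp outside the nearest island in both SKBR3 libraries, and that of CDK12 339 bp in SKBR3 replicate 1 and 139 bp in replicate 2. In all, 10 and 9 of the 10 members started inside an island in BT474 replicates 1 and 2, against 18.7% and 17.2% of all genes. In SKBR3 replicates 1 and 2 it was 7 and 8 members, against 13.0% and 15.1% of all genes.

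Windows with more than 95% cover were rare across the genome. In BT474 they were 9 of the 10 members in each replicate, against 0.473% and 0.453% of all 20098 windows in replicates 1 and 2. In SKBR3 they were 7 of 10 in each replicate, against 0.269% and 0.348%. The median window genome-wide had a cover of 10.8% to 13.1% in the 4 libraries. For most members the shares repeat 1 island and are not separate observations.

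**Figure D1:**
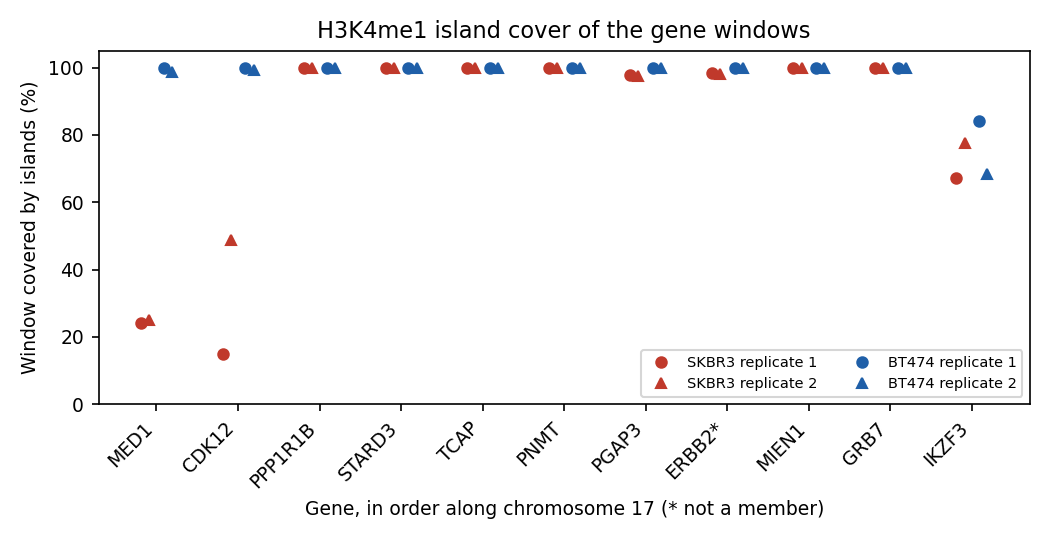
Share of each gene window (gene body plus 10 kb on each side, %) that lies in H3K4me1 islands, by gene in chromosome order, with 1 point per library. MED1 and CDK12 sit at or near 100% in BT474 and between 15.1% and 48.9% in SKBR3, and IKZF3 is partly covered in all 4 libraries.

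Density was the number of reads per kb of island in a window, divided by the median of that value over all windows with at least 2 kb of island in the same library (39.5 to 52.0 reads per kb). Because an island carries a single count, genes in the same island share its density. PPP1R1B, STARD3, TCAP, PNMT, PGAP3, MIEN1 and GRB7 stood at 6.94 in BT474 replicate 1 and 6.81 in replicate 2, as did ERBB2. In SKBR3 replicates 1 and 2 the density was 5.73 and 5.27 for PPP1R1B, STARD3, TCAP and PNMT. It was 5.57 and 5.21 for PGAP3, and 4.49 and 4.81 for MIEN1 and GRB7. Within SKBR3 the island proximal of the ERBB2 gap thus had a higher density than the one distal of it in both replicates, by 1.24 and 0.46 times the library median. The proximal island began at position 37751401 in replicate 1 and 37711601 in replicate 2, so its density averages different stretches. In BT474 all of these members share a single island and its count, so such a step could not be seen there and the lines cannot be compared on it.

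The 3 members that act in transcription lay at the ends of the cluster and, in BT474, below the density of the other members. IKZF3 had a density of 6.02 and 6.55 in BT474 and 4.52 and 4.31 in SKBR3. MED1 had 3.30 and 2.45 in BT474 and 2.64 and 2.74 in SKBR3. CDK12 had 3.30 and 3.35 in BT474 and 3.25 and 3.73 in SKBR3. The lines were separated for IKZF3 and overlapped for MED1 and CDK12. In the windows of MED1 and CDK12 the islands thus differed in extent between the lines and not detectably in reads per kb. For MED1 the SKBR3 values came only from islands in the flanks, so reads per kb over its gene body were not compared. In BT474 replicate 1 the island that held CDK12 had 172 reads per kb, and the next one, starting before PPP1R1B, had 360.6. In BT474 replicate 2 CDK12 was split between an island of 101 reads per kb, which held its start, and one of 159, and the next island had 298.6. The islands on either side of this step were parted by an 800-bp gap between CDK12 and PPP1R1B (chr17:37741401-37742200), at the same position in both replicates and with no annotated start site. Because an island carries a single count, a step can show only at a gap, and where reads changed within the islands cannot be seen.

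A density of 2 or more was reached by all 10 members in every library. The share of windows that reached it was 1.22% and 1.16% in BT474 replicates 1 and 2 and 1.37% and 1.36% in SKBR3. Both BT474 libraries lay above both SKBR3 libraries for 8 members, MED1 and CDK12 being the exceptions, and such separation was found in 34.8% of 12143 windows. The opposite separation was found for 0 members, against 33.9% of windows. The median over members was 6.87 ± 0.087 (SD, n = 2) in BT474 and 5.03 ± 0.025 (SD, n = 2) in SKBR3, a difference of 1.85. An exact permutation test over the libraries, two-sided, gave p = 0.333, which is the smallest p that 2 against 2 libraries allow.

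**Figure D2:**
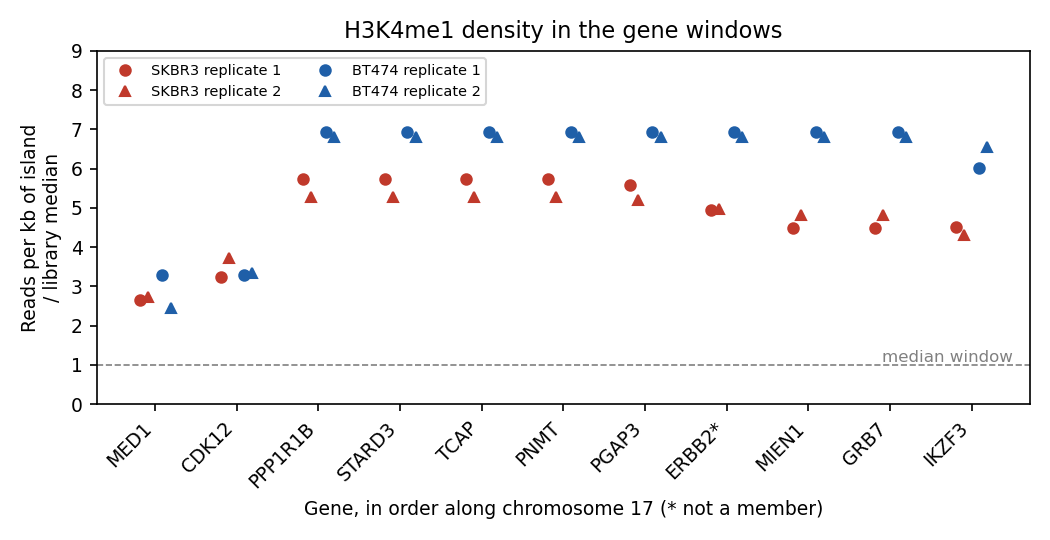
H3K4me1 reads per kb of island in each gene window divided by the library's median window (no unit), by gene in chromosome order, with 1 point per library and a dashed line at the median window. All points lie above 2, the lines separate from PPP1R1B to IKZF3, and they overlap at MED1 and CDK12.

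The island reads of each window (window reads), which combine cover and density, were compared between lines with edgeR's quasi-likelihood test over 17294 windows. Reads outside called islands are not part of these values. Window reads were higher in BT474 for 9 of the 10 members at an adjusted p under 0.05 and lower for 0. Members in the same island share its reads by overlapped length, so these 9 calls are not separate observations. Over all windows 35.6% were called higher in BT474 and 28.8% lower. The median log2 difference, BT474 minus SKBR3, was 0.46 over the members and 0.19 over all windows, so the values relative to all windows are smaller by 0.19.

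MED1 had the largest difference among the members. Its window held 11490 and 7096 island reads in BT474 and 1747 and 1814 in SKBR3. The log2 difference was 2.09 (SE 0.15, adjusted p = 0.00149, edgeR), which was 1.90 above the median of all windows. On reads per kb of island, with SKBR3 islands only in the flanks, the difference was 0.08 (adjusted p = 0.69, limma). The call for MED1 thus rested on cover, and so on where islands were called. CDK12 had a log2 difference of 1.52 (SE 0.65) and was not called (adjusted p = 0.114, edgeR). Its window held 2512 island reads in SKBR3 replicate 1 and 9087 in SKBR3 replicate 2, against 21624 and 18404 in BT474. In SKBR3 replicate 2 the 144.6-kb island, at 208 reads per kb, reached into CDK12 and gave it reads by overlapped length. The matching island of SKBR3 replicate 1 began past the CDK12 window. Without SKBR3 replicate 1 the CDK12 value was 0.87 (adjusted p = 0.00078, edgeR), and without SKBR3 replicate 2 it was 2.69 (adjusted p = 0.00027, edgeR).

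The members wholly or partly inside the 236.6-kb BT474 island differed less. IKZF3 was higher in BT474 by 0.57 on the log2 scale (SE 0.06, adjusted p = 0.00255, edgeR). GRB7 (SE 0.04, adjusted p = 0.00149) and MIEN1 (SE 0.04, adjusted p = 0.00174) were both higher by 0.55 in the same edgeR fit, close to ERBB2 at 0.49 (SE 0.03, adjusted p = 0.00138). PGAP3, whose window spans both SKBR3 islands, was higher by 0.37 (SE 0.07, adjusted p = 0.0107, edgeR). PPP1R1B, STARD3, TCAP and PNMT were each higher by 0.31 (SE 0.07 to 0.08, adjusted p 0.0235 to 0.0277, edgeR), which was 0.12 above the median of all windows. In every library the windows of these genes lay wholly in the same island, so their values and p-values repeat the same measurement. The same holds for GRB7 and MIEN1.

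The count of 9 depended on the BT474 libraries. Without BT474 replicate 1, and likewise without BT474 replicate 2, 4 members were called higher and PPP1R1B, STARD3, TCAP, PNMT and PGAP3 were not (log2 differences of 0.29 to 0.40, adjusted p 0.0516 to 0.132, edgeR), while the share of windows called higher over the genome was 17.1% and 16.6%. Nothing in the labels places the replicates of a line in separate cultures, and p-values then measure only the spread between these libraries.

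**Figure D3:**
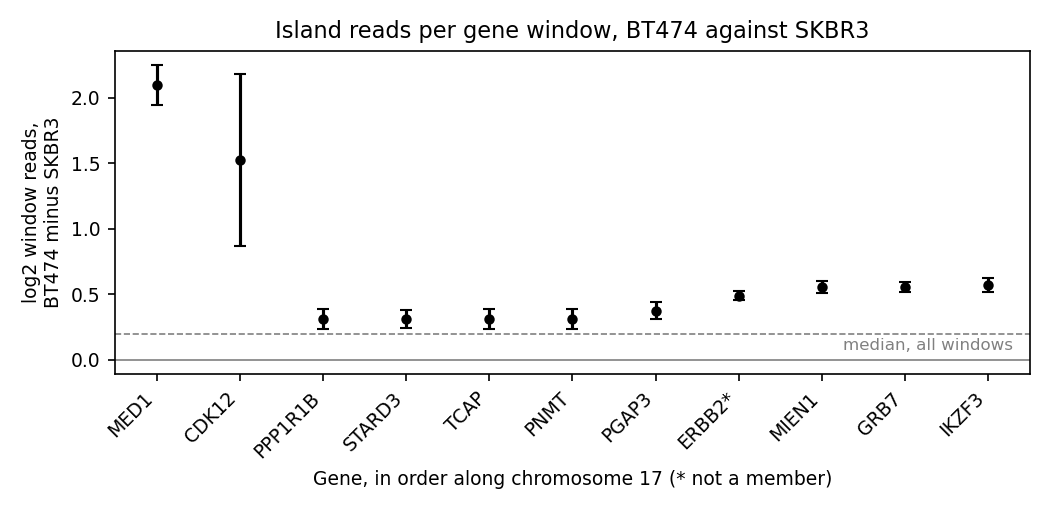
Log2 difference in H3K4me1 window reads, BT474 minus SKBR3, by gene in chromosome order, with standard errors from the edgeR fit, a solid line at 0 and a dashed line at the median of all windows (0.19). MED1 (2.09) and CDK12 (1.52, with the widest error) stand above the members from PPP1R1B to IKZF3 (0.31 to 0.57).

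The stretch of high density around the members had different edges in the lines. It was followed outwards from ERBB2 in 20-kb bins, those with at least 2 kb of island being informative. It ended where 3 informative bins in a row fell under 2 times the library median of such bins, in the mean of the replicates. Densities of bins are given over this bin median, and densities of whole stretches over the median window used above. In SKBR3 it ran from 37.28 to 38.34 Mb (1.06 Mb) and in BT474 from 36.34 to 38.24 Mb (1.9 Mb), so it reached 0.94 Mb further in the proximal direction in BT474, and all 10 members lay in the stretch common to both lines. Both statements depended on the threshold: at 3 times the median the proximal edge was 37.64 Mb in BT474 and 37.28 Mb in SKBR3, so that the order turned, MED1 lay outside the BT474 stretch and its edge cut CDK12. Under the other settings the proximal edge lay between 36.34 and 36.68 Mb in BT474 and at 37.25 or 37.28 Mb in SKBR3. In that common stretch, from 37.28 to 38.24 Mb, the density was 4.30 and 4.17 in BT474 and 3.83 and 3.77 in SKBR3, with 92.8% and 91.6% of it in islands in BT474 and 62.5% and 78.5% in SKBR3.

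Proximal of 37.28 Mb the lines parted. From 36.34 to 37.28 Mb the density was 3.33 and 3.21 in BT474 and 0.79 and 0.84 in SKBR3, where 7.87% and 7.17% of the stretch lay in islands. Distal of the members, from 38.24 to 38.34 Mb, the order was the opposite, with 1.17 and 1.71 in BT474 and 2.97 and 2.99 in SKBR3. The edges were set on these same values, so these are descriptions and were not tested. At the proximal edge in SKBR3 the density was 3.19 and 3.25 in the last bin inside, and the next informative bin, chr17:37180001-37200000, had 0.64 in replicate 1 and no value in replicate 2, with no informative bin between them. At the distal edge in SKBR3 it went from 2.35 and 2.99 to 1.96 and 1.79, and that edge ranged from 38.08 to 38.9 Mb over the other settings tried. Past it the SKBR3 density rose again, to 4.51 and 4.32 in a bin centred 626 kb from the ERBB2 start, so the edge is not the end of dense bins in SKBR3. In BT474 the density also rose again proximal of its edge, to 2.44 and 3.20 in a bin centred at -2214 kb. That edge is therefore not the end of dense bins in BT474 either.

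Of 45 neighbouring genes on a fixed list, 14 had a density of 2 or more in all 4 libraries, 9 in both SKBR3 libraries only, 13 in both BT474 libraries only and 9 in both libraries of neither line. A gene was counted as inside a stretch if any part of its body lay in it, and the edges cut PLXDC1, RAPGEFL1 and THRA. On the proximal side of SKBR3 the outermost gene inside was PLXDC1, at 3.20 and 3.26. The first gene outside was FBXO47, which had under 2 kb of island in SKBR3 and stood at 6.09 and 4.98 in BT474. On the distal side of SKBR3 the outermost gene inside was RAPGEFL1, at 2.09 and 2.38, and the first outside was WIPF2, at 1.99 and 1.78. In BT474 the outermost gene on the proximal side was ARHGAP23, at 2.15 and 2.02, with no listed gene beyond it. On the distal side of BT474 the last gene inside was THRA, the thyroid hormone receptor alpha gene, at 5.36 and 4.43, and the first outside was NR1D1, a nuclear receptor of the circadian clock, at 1.00 in replicate 1 and 2.75 in replicate 2. Genes beyond the SKBR3 edge could be denser than RAPGEFL1, such as CDC6, a factor that licenses replication origins, at 4.05 and 3.63 in SKBR3 and RARA, the retinoic acid receptor alpha gene, at 3.23 and 3.79. TOP2A, the topoisomerase that anthracyclines act on, lay outside both stretches, at 2.18 and 2.11 in SKBR3 and 1.03 and 1.26 in BT474.

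**Figure D4:**
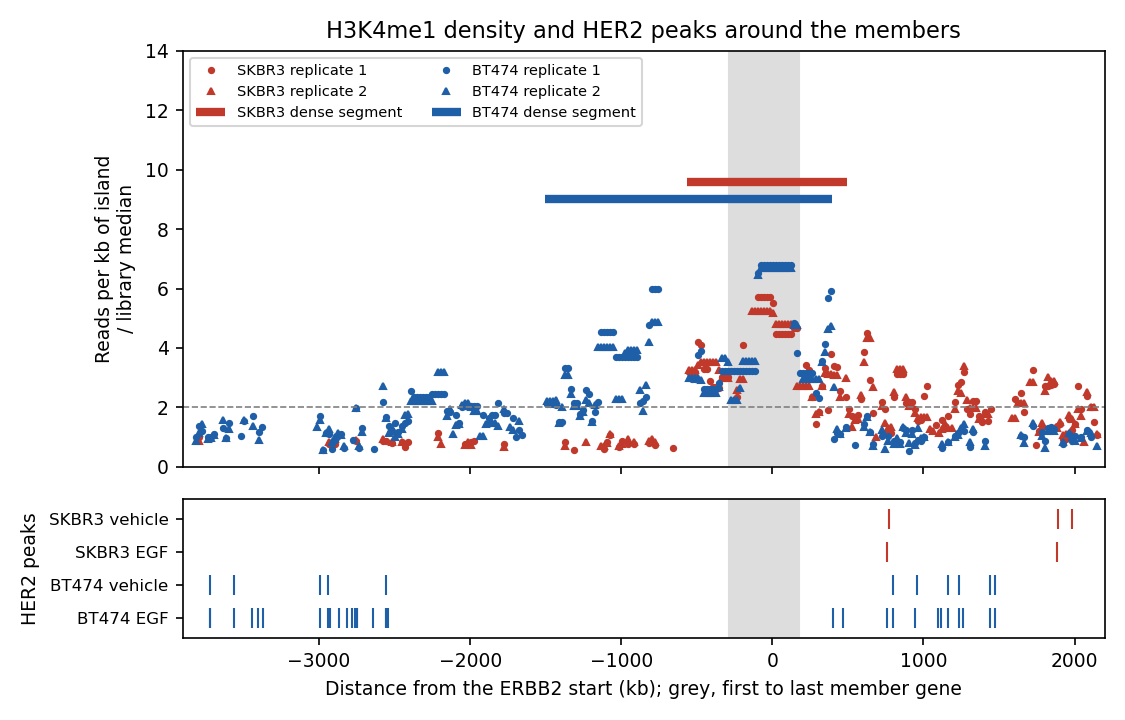
Upper panel, H3K4me1 reads per kb of island over the library median of bins (no unit) in 20-kb bins against distance from the ERBB2 start (kb), 1 point per informative bin and library, with bars for the dense stretch of each line and a dashed line at 2. Lower panel, HER2 peaks of the 4 lists on the same axis, none of which lies in the grey span from the first to the last member gene.

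Among 11451 genes on other chromosomes with a density in all 4 libraries, the 5 whose densities were closest to the members' median profile were SPO11, PMEPA1, ZMYND8, ZNF217 and AL590452.1, the first 4 on chromosome 20 and the last on chromosome 1. Their Euclidean distance on the log2 scale over the 4 libraries ran from 1.69 (SPO11) to 2.36 (AL590452.1). SPO11 stood at 2.76 and 2.94 in SKBR3 and at 4.10 and 3.46 in BT474, below the members' medians of 5.04 and 5.01 in SKBR3 and 6.94 and 6.81 in BT474. ZMYND8 had 2.27 and 2.32 in SKBR3 and 4.33 and 4.17 in BT474. None of the 5 reached the members' median in any library.

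HER2 peaks were absent from the whole cluster. In each of the 4 lists, 0 of the 10 members had a HER2 peak in the window, and ERBB2 had none either. A peak lay in 19.7% of all windows in BT474 with vehicle, 44.6% in BT474 with EGF, 6.30% in SKBR3 with vehicle and 6.73% in SKBR3 with EGF. The members adjoin each other, so the 10 zeros describe 1 region and not 10 observations.

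The nearest peak to every member lay on the distal side, past IKZF3. In BT474 with EGF the distance from the gene body ran from 224 kb for IKZF3 to 637 kb for MED1, with 341 kb for GRB7 between them. In BT474 with vehicle it ran from 622 kb (IKZF3) to 1035 kb (MED1). In SKBR3 it ran from 595 to 1008 kb with vehicle and from 581 to 994 kb with EGF. The median distance over all genes was 15.1 kb in BT474 with EGF, 97.5 kb in BT474 with vehicle, 426 kb in SKBR3 with EGF and 499 kb in SKBR3 with vehicle. In BT474 with EGF only 0.751% of genes lay farther from a peak than MED1, and 4.03% lay farther than IKZF3. In SKBR3, where the lists are short, between 27.5% and 45.5% of genes lay farther than a given member.

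**Figure D5:**
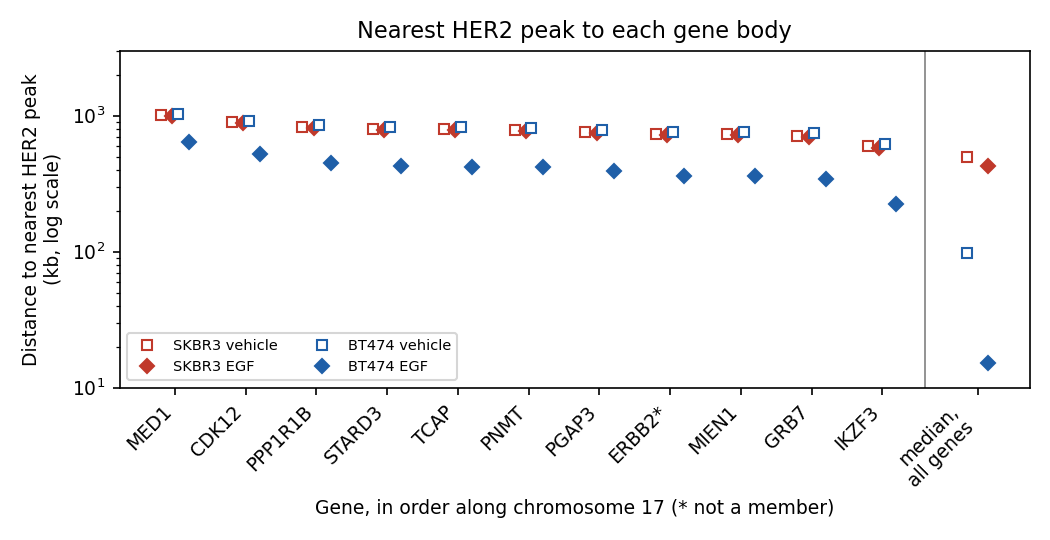
Distance from each gene body to the nearest HER2 peak (kb, log scale), by gene in chromosome order, with 1 point per list and, at the right, the median over all genes. In BT474 with EGF the members lie between 224 and 637 kb against a median of 15.1 kb, and in SKBR3 they lie between 581 and 1008 kb against medians of 426 and 499 kb.

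The stretch without peaks around the members was 2.95 Mb long in BT474 with EGF and ranked 23 among 29303 gaps between neighbouring peaks, with no sequence masked. It was 3.35 Mb in BT474 with vehicle (rank 35 of 8536), 5.12 Mb in SKBR3 with EGF (rank 90 of 2497) and 9.89 Mb in SKBR3 with vehicle (rank 31 of 2573). The dense H3K4me1 stretch of each line, at the edges given above, held 0 peaks in both of its lists. At the edges of other settings it held 1 BT474 EGF peak under 4 of 8 settings, and 1 SKBR3 EGF peak and 1 SKBR3 vehicle peak under 3 of 8, in each case the first peak distal of the members. At the rate of chromosome 17 as a whole, a stretch of that length would hold 15.8 peaks in BT474 with EGF and 4.42 with vehicle, but 0.94 in SKBR3 with EGF and 0.64 with vehicle, so the SKBR3 lists were too short to show an absence.

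In BT474 with EGF the first peak beyond the members lay 4.86 kb past the distal edge of the dense stretch, which is less than a 20-kb bin and turned to inside the stretch with the edge at 38.25 or 38.26 Mb, and 10 peaks lay within 1 Mb of that edge. Within 1 Mb of the proximal edge there were 0 peaks in all 4 lists, so the region without peaks reached past that edge. In BT474 the region beyond the edge held dense bins again, such as 2.44 and 3.20 in the bin centred at -2214 kb from the ERBB2 start. The study's methods removed regions of high input signal before the lists were made, and amplified DNA gives such signal. Its part in the absence of peaks at the members was not tested, since the input files were not analysed here.

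The first peak distal of the members in each list is printed below, 5′ to 3′ on the plus strand of GRCh37, because these 4 peaks set every distance above. Capitals mark a match to the core CGTNTGC on either strand.
BT474 EGF, chr17:38244855-38245054: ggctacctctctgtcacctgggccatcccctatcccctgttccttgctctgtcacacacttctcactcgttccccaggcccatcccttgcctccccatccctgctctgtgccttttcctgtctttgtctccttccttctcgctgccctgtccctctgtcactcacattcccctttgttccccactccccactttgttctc
BT474 vehicle, chr17:38642833-38643076: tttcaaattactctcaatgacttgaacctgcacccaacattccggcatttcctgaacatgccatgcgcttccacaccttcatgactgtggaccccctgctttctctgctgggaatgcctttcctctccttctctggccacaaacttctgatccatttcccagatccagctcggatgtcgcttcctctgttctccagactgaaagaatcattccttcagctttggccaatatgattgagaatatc
SKBR3 EGF, chr17:38601215-38601414: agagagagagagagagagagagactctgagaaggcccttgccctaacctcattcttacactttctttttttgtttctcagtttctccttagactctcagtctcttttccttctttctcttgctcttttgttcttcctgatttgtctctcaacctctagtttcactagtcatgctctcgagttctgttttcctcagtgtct
SKBR3 vehicle, chr17:38615308-38615507: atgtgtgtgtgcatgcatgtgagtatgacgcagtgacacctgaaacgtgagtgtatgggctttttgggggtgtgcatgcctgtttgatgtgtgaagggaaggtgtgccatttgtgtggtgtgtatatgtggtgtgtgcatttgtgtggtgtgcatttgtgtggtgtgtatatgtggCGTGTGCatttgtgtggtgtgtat

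The BT474 EGF peak lay in an intron of THRA, had a score of 31 in the deposited list and overlapped a peak of 0 other lists. The BT474 vehicle peak lay in an intron of TNS4 (score 85.5) and the SKBR3 EGF peak in an intron of IGFBP4 (score 254), and both overlapped a BT474 EGF peak. The SKBR3 vehicle peak lay in no annotated gene (score 36.5) and overlapped a peak of 0 other lists. The scale of these scores is not given in the sources used here, and they are not compared between lists. Only the SKBR3 vehicle peak held the core, once. The core was found in 19.4% of BT474 vehicle peaks, 11.8% of BT474 EGF peaks, 8.44% of SKBR3 vehicle peaks and 15.9% of SKBR3 EGF peaks.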

How the data were processed

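H3K4me1 ChIP-seq (4 libraries) and HER2 ChIP-exo (4 peak lists) were analysed, all on GRCh37 (hg19). The deposited H3K4me1 files held raw read counts per SICER island, which the authors made with input as control, and the deposited HER2 files held peaks with a score. The submitters' processing notes name BWA 0.5.9, MACS 1.4.1 and SICER 1.1, while the study's methods name other aligner and MACS versions. Genes were protein-coding in GENCODE release 44 lifted to GRCh37.

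Island reads were shared out by overlapped length and rounded. Windows with at least 30 reads in 2 libraries were tested with edgeR 4.0.16 (TMM, quasi-likelihood, Benjamini-Hochberg) in R 4.3.3, with limma 3.58.1 and DESeq2 1.42.0 as alternatives. The scripts were tested on simulated data. HER2 lists had no replicate and no test. The named genes were the members, ERBB2, the first listed genes inside and outside each edge, the 5 closest genes on other chromosomes and the nearest peaks. KRT8, PGR, ESR1, CDH1, CD3E, COL1A1, CDC6, RARA and TOP2A were named after their values were seen. PECAM1 was not matched in the annotation. Members and lists were chosen with earlier results of these data known. Promoter sequences other than those of MED1 and CDK12 are not reported here.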

Additional observations from a re-analysis of the deposited data

How the results depend on the processing

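Over 13 other settings of the window test, the members' log2 differences kept their direction in 128 of 129 values and their side of the threshold in 111. Members in the same island share its count, so these values are not separate observations. The exception in direction was CDK12 on reads per kb of island with limma, at -0.067 (adjusted p = 0.57), where 3610 windows were called against 11132 in edgeR. Members called higher in BT474 ran from 6 to 9 with all 4 libraries and from 4 to 10 with 1 left out, and windows called without 1 library ran from 6346 to 11664. With 1 library left in a line, that library is assumed to vary like the others. No island of either SKBR3 library lay in the gene body of MED1, so it had no island reads there and no fold is given without the flanks.

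The median density of the members in SKBR3 and BT474 was 5.11 and 7.10 over the median of all islands, 4.73 and 6.45 over the median of 1-Mb bins, and 26.6 and 38.4 per kb of window, and in SKBR3 5.49 over gene bodies. It ran from 5.01 to 5.04 (SKBR3) and from 6.81 to 6.94 (BT474) without 1 replicate. Mean cover ran from 80.4% to 84.9% (SKBR3) and from 96.7% to 98.4% (BT474) without 1 replicate.

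The distal edge in SKBR3 was 38.88 Mb at 1.5 times the median or with 5 bins under it, 38.08 at 3 times, 38.11 with 10-kb bins, 38.9 with 50-kb bins and 38.12 with 1 bin under it. Its proximal edge was 37.25 with 50-kb bins. The proximal edge in BT474 was 37.64 at 3 times, 36.68 with 10-kb bins or 1 bin under it and 36.35 with 50-kb bins, and its distal edge was 38.26 at 1.5 times or without replicate 1 (38.24 without replicate 2). At 3 times, the proximal edge in BT474 thus lay within CDK12 and distal of that in SKBR3, the opposite order. With the higher-scoring peaks of the BT474 EGF list the nearest peak lay at 294 kb. The members with a HER2 peak were 0 under every setting tried, flanks of 100 kb included.

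Replicate numbers did not pair the libraries (correlation of deviations between lines -0.03 over 17294 windows). With the replicate block 6 members and 8021 windows were called.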
